A study of Mus musculus with 6 samples.

Results

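The genes described here are 41 genes of the lysosome and of autophagy, taken by their symbols with earlier results of these data known. They are 2 transcription factors, 4 proteins of the lysosomal membrane, 8 cathepsins, 7 glycosidases and lipid-handling proteins, 7 genes that start and place the autophagosome, 5 conjugation enzymes, 5 genes of the LC3 and GABARAP family, and 3 cargo receptors. Each symbol named a single row among the 53700 genes of the deposited table. Of the 41 genes, 40 had a mean of at least 1 TPM over all libraries and were tested, and only Ctsk was below that filter.

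The study compared SL4 cells, a mouse colorectal cancer line that carries luciferase, with and without a lentivirus for SEMA6A, and sequenced poly-A-selected mRNA. The pLV-Control group had 3 libraries of cells without SEMA6A overexpression, and the pLV-SEMA6A group had 3 libraries of the stable overexpressing line. All 6 libraries came from the SL4 line. Separate cultures are not described and only 1 overexpressing line is, so SEMA6A and differences between the lines cannot be told apart and the p-values measure only the spread between these libraries. The study's text names the sequenced controls both as SL4 and as pLV-Control, and whether they carried an empty vector is not settled by it.

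Lysosomes break down material that arrives by endocytosis or inside autophagosomes, with acid hydrolases that depend on proton pumping by the V-ATPase. The transcription factors TFEB and TFE3 bind E-box sites of the CLEAR type in many lysosomal and autophagy genes, and mTORC1 on the lysosomal surface keeps them in the cytosol when nutrients are plentiful. Autophagosomes form when the ULK and Beclin 1 complexes act on membranes, after which LC3 and GABARAP proteins are joined to lipid and capture cargo receptors such as p62, the product of Sqstm1.

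Sema6a itself was listed at 98.7, 118 and 112 TPM with overexpression and at 0 in the 3 libraries without. Levels are in TPM, which is scaled by transcript length and to a common total, and depth is unknown. Across genes, libraries correlated at 0.967 to 0.978 (Pearson's r of log2(TPM + 1)) within groups and at 0.941 to 0.957 between them, and none stood apart from its group. None of 8 epithelial markers (Epcam, Cdh1, Krt8, Krt18, Krt19, Krt20, Vil1 and Cdx2) reached the filter, and their summed level was 0.13 to 0.54 TPM over the 6 libraries, so the epithelial markers were absent or nearly so from cells labelled as colorectal cancer. Macrophages are rich in lysosomes. Of 10 macrophage markers, Adgre1, C1qa, C1qb and Itgam were listed at 0 in every library, and only Cd14 and Cd68 were tested. Cd14 was higher, at 11.6 ± 0.697 TPM in pLV-Control against 16.4 ± 1.003 TPM in pLV-SEMA6A (mean ± SD, n = 3). Cd68, at 1.28 ± 0.649 against 0.967 ± 0.170 TPM, did not pass. Summed over the 10 markers the level was 12.7 to 13.7 TPM in pLV-Control and 16.2 to 18.6 TPM in pLV-SEMA6A, most of it Cd14. Summed over 8 fibroblast markers, it was 126 to 143 TPM in pLV-Control and 184 to 189.9 TPM in pLV-SEMA6A, mainly Col3a1. Of these 8, 5 were tested, with 2 higher and 2 lower. The part of these markers in the results was not tested. In bulk RNA, fewer cells of a type and less RNA per cell cannot be told apart.

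Most lysosomal hydrolases and the cargo receptors Sqstm1 and Nbr1 were lower in pLV-SEMA6A cells, while Lamp1, Cd63, Atg3 and Map1lc3a were higher. Changes are log2 fold changes of TPM + 1, called log2 changes here, pLV-SEMA6A minus pLV-Control and with their standard error (SE), a scale that understates the change of low genes, and they were tested with limma over 12510 genes with Benjamini-Hochberg adjustment. At an adjusted p under 0.05, 25 of the 40 tested members fell (62.5%) and 6 rose (15%), and 9 did not pass. Over all genes tested 28.2% fell and 19.5% rose. The median log2 change was −0.29 for the members and −0.064 for all genes tested. For DEGs, which also had an absolute log2 change over 0.5, 11 members were lower and 1 was higher, beside 10.8% and 5.12% of all genes. In 26 of the 40 members every pLV-SEMA6A library lay below every pLV-Control library and in 6 every one lay above, beside 34.7% and 23.8% of all genes tested. Median centring of the libraries moved the median of all genes by 0.093 and left 21 members lower and 8 higher, beside 2474 lower and 3370 higher of all genes in place of 3523 and 2436.

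**Figure D1:**
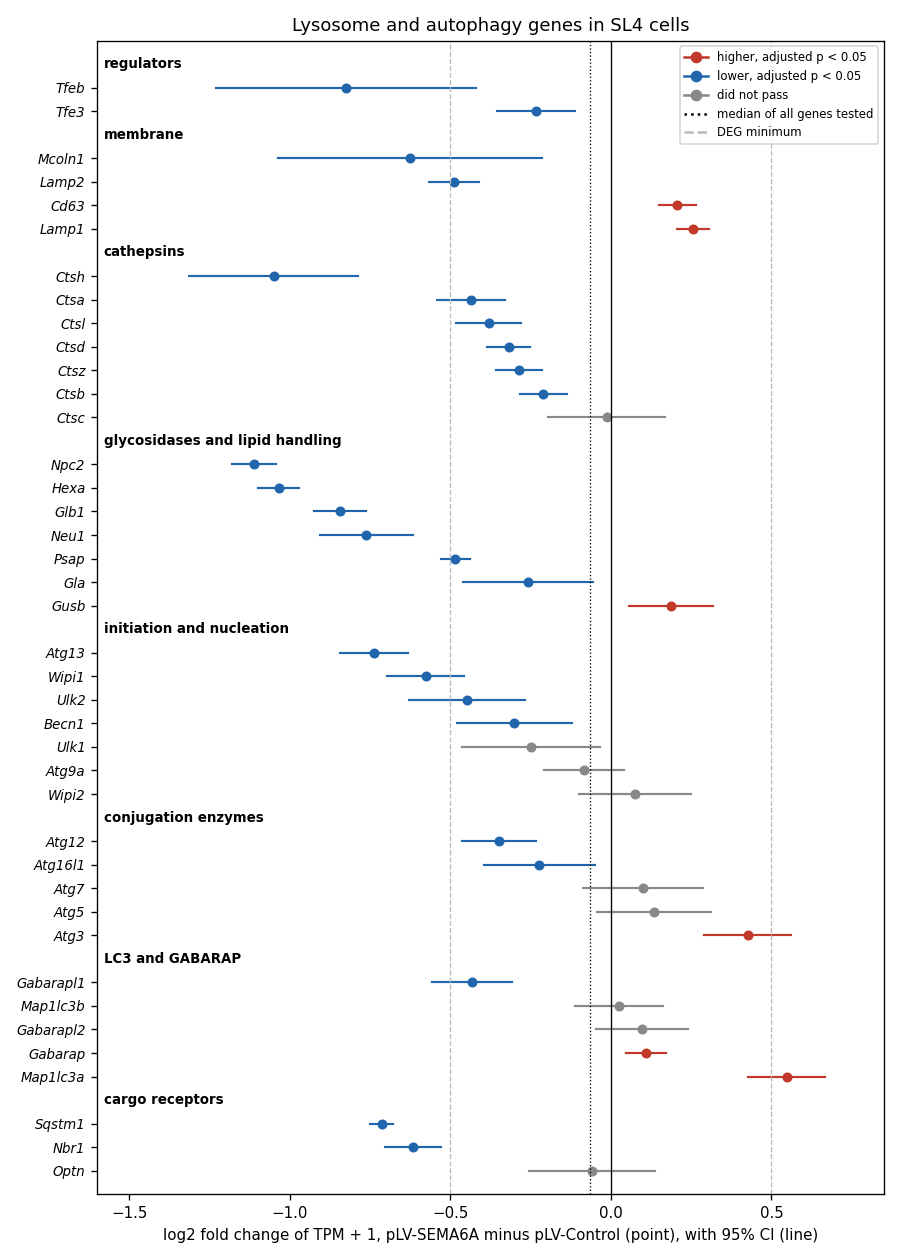
Log2 change of each of the 40 tested members (points) with its 95% confidence interval from limma (lines), grouped by role, with the median of all genes tested as a dotted line and the DEG minimum of 0.5 as dashed lines. Most points lie left of 0, from −1.11 for Npc2, and the highest is 0.55 for Map1lc3a.

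Both transcription factors fell, the low Tfeb by more than the abundant Tfe3. Tfeb, on chromosome 17 from 47737030 to 47792419 (GENCODE M21, GRCm38), was at 3.87, 4 and 2.99 TPM in pLV-Control against 1.99, 1.17 and 1.69 TPM in pLV-SEMA6A, libraries given in the order of their replicate numbers here and below. The groups did not overlap, and the log2 change was −0.83 ± 0.17 (SE, adjusted p = 0.00761). Tfe3, on chromosome X from 7762560 to 7775202, was at 35.97, 33.9 and 37.3 TPM in pLV-Control against 31.1, 30.7 and 28.97 TPM in pLV-SEMA6A. Here too the groups lay apart, with a log2 change of −0.23 ± 0.051 (SE, adjusted p = 0.00988), but after median centring Tfe3 no longer passed (−0.14, adjusted p = 0.0539, with a range of 0.0097 to 0.0539 over all alternatives). Mitf, the third factor of the family that these cells expressed, was at 2.18 ± 0.231 TPM in pLV-Control against 2.59 ± 0.217 TPM in pLV-SEMA6A (mean ± SD, n = 3) and did not pass (adjusted p = 0.274). Tfec was listed at 0 in every library.

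E-box letters were searched for in RefSeq promoter windows (GRCm38.p6, 250 bases before to 50 bases after each annotated start), which were found for 35 of the 41 members. CACGTG, the core of the CLEAR-type site and its own reverse complement, was in a window of 10 of these 35 genes (28.6%) and of 2187 of all 27025 genes with a window (8.09%). The longer palindrome TCACGTGA, which contains that core, was in 5 of the 35 (14.3%) and in 304 of all genes (1.12%). The 5 were Ctsa, Ctsd, Gla, Mcoln1 and Atg3, and the other 5 with the core alone were Lamp1, Glb1, Ctsl, Atg5 and Atg7. All genes with a window include genes that were not tested here, and no share was taken over the tested genes alone. A match describes the letters of a window and is not a binding site. Shown here are upstream stretches of members that hold the longer palindrome, hold 3 or more cores or were DEGs, each starting 120 bases before the start and cut to the part outside GENCODE M21 exons, with cores in capitals. Ctsa, Ctsd and Gla are left out because less than 50 bases with a core lay outside exons or the annotated start lay inside the gene, and the longer palindrome of Mcoln1 lies in an exon and is not shown.
Mcoln1, chr8:3500399-3500456, plus strand: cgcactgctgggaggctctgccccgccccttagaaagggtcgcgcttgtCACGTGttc
Lamp1, chr8:13159041-13159160, plus strand: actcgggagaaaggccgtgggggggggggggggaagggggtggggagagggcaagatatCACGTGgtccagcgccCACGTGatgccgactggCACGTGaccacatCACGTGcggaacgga
Glb1, chr9:114400958-114401075, plus strand: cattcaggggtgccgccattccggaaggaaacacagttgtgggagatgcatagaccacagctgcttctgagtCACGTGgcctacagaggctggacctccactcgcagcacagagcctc
Atg3, chr16:45158709-45158784, plus strand: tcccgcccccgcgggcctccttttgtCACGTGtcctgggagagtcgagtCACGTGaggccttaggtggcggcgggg
The Lamp1 stretch, of 120 bases, holds 4 cores, that of Atg3 holds 2, and those of Mcoln1 and Glb1 hold 1 each. The 10 members with a core moved in both directions, as did the 40 tested members together, of which 62.5% fell and 15% rose. Over all genes tested the shares were 28.2% and 19.5%. A part of the core in these changes was not tested. Lamp1 and Atg3 were higher in pLV-SEMA6A, Ctsa, Ctsd, Ctsl, Glb1, Gla and Mcoln1 were lower, and Atg5 and Atg7 did not pass. Gla and Mcoln1 did not pass in most fits with a library left out, as given below.

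The 4 membrane proteins split, with Lamp1 and Cd63 higher and Lamp2 and Mcoln1 lower. LAMP1 and LAMP2 are the main glycoproteins that line the lysosomal membrane, and LAMP2 also serves the import of proteins in chaperone-mediated autophagy. Lamp1, on chromosome 8 from 13159161 to 13175338, was at 389, 402 and 396 TPM in pLV-Control against 471, 476 and 469.8 TPM in pLV-SEMA6A. Every pLV-SEMA6A library was higher, and the log2 change was 0.26 ± 0.02 (SE, adjusted p = 0.000149). Lamp2, on chromosome X from 38401357 to 38456454, went the other way, at 181, 181 and 192 TPM in pLV-Control against 133, 133 and 129 TPM in pLV-SEMA6A. It fell by 28.9%, a log2 change of −0.49 ± 0.032 (SE, adjusted p = 6.8e-05), just short of the DEG minimum of 0.5. Cd63, a tetraspanin of late endosomes and exosomes, rose from 1045 ± 28.3 to 1207 ± 13.4 TPM (mean ± SD, n = 3), a log2 change of 0.21 ± 0.024 (SE, adjusted p = 0.000714). Mcoln1, which encodes the calcium channel TRPML1 of the lysosome, was at 69.7, 64.6 and 57.1 TPM in pLV-Control against 33.5, 53.6 and 37.9 TPM in pLV-SEMA6A. The groups did not overlap, but pLV-SEMA6A replicate 2 lay well above the other two. Its log2 change of −0.63 ± 0.17 (SE, adjusted p = 0.0237) did not pass in 4 of 6 fits with a library left out. The adjusted p was 0.0724 without pLV-Control replicate 1, 0.0649 without pLV-Control replicate 2, 0.0588 without pLV-SEMA6A replicate 1 and 0.0736 without pLV-SEMA6A replicate 3. Mcoln1 also did not pass without the filter (adjusted p = 0.0597).

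Of the 8 cathepsins, the proteases of the lysosome, 6 fell, 1 did not pass and 1 was below the filter. The 6 were 85.7% of the 7 tested, and 28.2% of all genes tested fell. Ctsh, an aminopeptidase on chromosome 9 from 90054152 to 90076089, fell furthest and was at 49.9, 51.8 and 44.9 TPM in pLV-Control against 21.3, 21.03 and 27.3 TPM in pLV-SEMA6A. All pLV-SEMA6A libraries lay far below the lowest of pLV-Control, a fall of 52.5%, and the log2 change was −1.05 ± 0.11 (SE, adjusted p = 0.000445). The other falls were smaller and lay in the abundant cathepsins. Ctsl, a cysteine endopeptidase and the highest of the cathepsins in TPM, was at 805, 813 and 881 TPM in pLV-Control against 645, 658 and 615 TPM in pLV-SEMA6A. It fell by 23.2%, a log2 change of −0.38 ± 0.042 (SE, adjusted p = 0.000603). Ctsd, the main aspartic protease of lysosomes, was at 389, 399.7 and 407 TPM in pLV-Control against 328, 313 and 318 TPM in pLV-SEMA6A. Its log2 change was −0.32 ± 0.028 (SE, adjusted p = 0.000227). Ctsb, a cysteine protease that also trims peptides from the end of proteins, was at 501, 537 and 523 TPM in pLV-Control against 458, 445 and 444 TPM in pLV-SEMA6A, with the smallest fall of the group at −0.21 ± 0.03 (SE, adjusted p = 0.00173). In each of these 3 genes all pLV-SEMA6A libraries lay below all pLV-Control libraries.

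Ctsa, the protective protein that stabilises beta-galactosidase and neuraminidase 1, fell from 162 ± 9.31 to 119 ± 1.95 TPM (mean ± SD, n = 3), a log2 change of −0.44 ± 0.044 (SE, adjusted p = 0.000416). Ctsz, a carboxypeptidase, fell from 278 ± 4.68 to 228 ± 6.88 TPM (mean ± SD, n = 3), a log2 change of −0.29 ± 0.03 (SE, adjusted p = 0.000443). Ctsc, which activates granule proteases of immune cells, was at 14.1 ± 0.719 TPM in pLV-Control against 14 ± 1.20 TPM in pLV-SEMA6A (mean ± SD, n = 3), with a log2 change of −0.013 (95% interval −0.20 to 0.17, adjusted p = 0.898), and its sign turned to 0.08 after median centring. Ctsk, the collagen-degrading cathepsin of osteoclasts, was at 0.310, 0.420 and 0.140 TPM in pLV-Control against 0.280, 0.480 and 0.580 TPM in pLV-SEMA6A, and the groups overlapped.

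Of the 7 glycosidases and lipid-handling proteins 6 fell (85.7%), 4 of them DEGs, and 1 rose (14.3%), with a median log2 change of −0.76. Of all genes tested, 28.2% fell and 19.5% rose, and 10.8% were lower DEGs. Npc2, which binds cholesterol in the lysosomal lumen and hands it on for export, lies on chromosome 12 from 84754562 to 84773152 and was at 175, 176 and 169 TPM in pLV-Control against 80.5, 78.4 and 79.97 TPM in pLV-SEMA6A. It fell by 54.03%, a log2 change of −1.11 ± 0.029 (SE, adjusted p = 2e-06), and the 3 libraries of each group lay close together. Hexa, the alpha subunit of the beta-hexosaminidase that degrades the ganglioside GM2, lies on chromosome 9 from 59539540 to 59565109 and was at 155, 150.3 and 151 TPM in pLV-Control against 74.4, 73.2 and 73.7 TPM in pLV-SEMA6A. It fell by 51.5%, a log2 change of −1.03 ± 0.027 (SE, adjusted p = 2e-06).

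Beta-galactosidase, neuraminidase 1 and cathepsin A form a complex in the lysosome, and the genes of all 3 fell. Glb1, which encodes beta-galactosidase on chromosome 9 from 114401076 to 114474898, was at 63.4, 66.6 and 64.7 TPM in pLV-Control against 35.4, 35.7 and 36.1 TPM in pLV-SEMA6A. The log2 change was −0.84 ± 0.034 (SE, adjusted p = 1e-05). Neu1, on chromosome 17 from 34931253 to 34935953, was at 17.02, 19.1 and 17.4 TPM in pLV-Control against 10.3, 9.89 and 10.2 TPM in pLV-SEMA6A, with a log2 change of −0.76 ± 0.061 (SE, adjusted p = 0.000149). In both genes the pLV-SEMA6A libraries varied less than the pLV-Control libraries and lay well below them.

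Psap, the precursor of the saposins that activate sphingolipid hydrolases, fell from 557 ± 2.05 to 398 ± 4.85 TPM (mean ± SD, n = 3), a log2 change of −0.48 ± 0.019 (SE, adjusted p = 9.1e-06). Gla, the alpha-galactosidase A lacking in Fabry disease, was at 16.7, 15.1 and 15.4 TPM in pLV-Control against 11.96, 14.6 and 12.5 TPM in pLV-SEMA6A, with a log2 change of −0.26 ± 0.084 (SE, adjusted p = 0.0431). The groups lay close to each other, and Gla passed in only 1 of 6 fits with a library left out, that without pLV-SEMA6A replicate 2, with an adjusted p of 0.0721 to 0.124 in the other 5 and of 0.141 after median centring. Gusb, the beta-glucuronidase often used as a reference gene, rose and was at 26.2, 25.7 and 23.9 TPM in pLV-Control against 29.9, 27.5 and 29.3 TPM in pLV-SEMA6A. Its log2 change was 0.19 ± 0.055 (SE, adjusted p = 0.03). Of the 6 fits with a library left out, Gusb passed only in those without pLV-Control replicate 1 and without pLV-SEMA6A replicate 2. In the other 4 the adjusted p was 0.059 to 0.0897. Gusb passed after median centring (0.28, adjusted p = 0.00693) and quantile normalisation (0.26, adjusted p = 0.014). It did not pass without the filter (adjusted p = 0.0532) or with the replicate block (adjusted p = 0.0582).

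**Figure D2:**
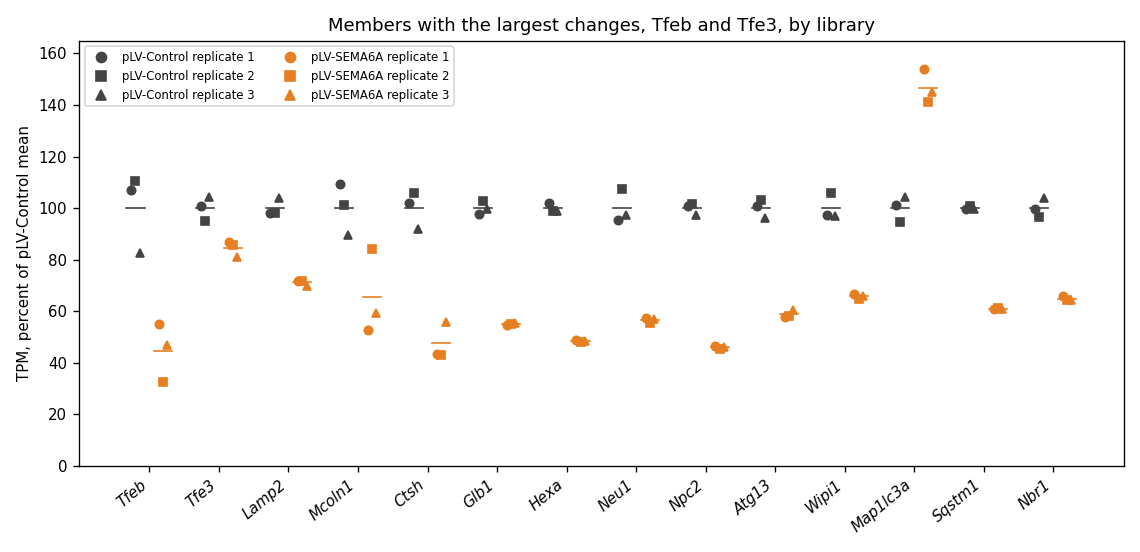
TPM of each library as a percent of the pLV-Control mean for the 12 members with the largest changes at a mean of at least 10 TPM, with Tfeb and Tfe3, where symbols stand for replicate numbers and short lines for group means. The pLV-SEMA6A libraries lie below 100% in all but Map1lc3a, and replicate 2 stands apart from the other two in Mcoln1.

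Among the 7 genes that start and place the autophagosome, 4 fell (57.1%, beside 28.2% of all genes tested) and 3 did not pass. Atg13, the subunit that links the ULK kinases to their partners, lies on chromosome 2 from 91674618 to 91710576 and was at 33.8, 34.6 and 32.3 TPM in pLV-Control against 19.4, 19.5 and 20.3 TPM in pLV-SEMA6A. Its groups stood well apart, with a log2 change of −0.74 ± 0.045 (SE, adjusted p = 5e-05). Wipi1, a reader of the phosphoinositide PI3P on forming autophagosomes, was at 27.3, 29.7 and 27.3 TPM in pLV-Control against 18.7, 18.2 and 18.6 TPM in pLV-SEMA6A. It fell by 34.2%, a log2 change of −0.58 ± 0.049 (SE, adjusted p = 0.000205). Its relative Wipi2, which recruits ATG16L1, was at 48.5, 50.4 and 51.6 TPM in pLV-Control against 59.2, 50.2 and 49.6 TPM in pLV-SEMA6A, and its groups overlapped, with a log2 change of 0.074 (95% interval −0.10 to 0.25, adjusted p = 0.434).

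Of the ULK kinases, Ulk2 fell and Ulk1 did not pass. Ulk2 was at 12.8, 13.7 and 14.1 TPM in pLV-Control against 10.6, 9.18 and 9.25 TPM in pLV-SEMA6A, with a log2 change of −0.45 ± 0.075 (SE, adjusted p = 0.00334). Ulk1 was at 13.5, 12.6 and 14.5 TPM in pLV-Control against 11.5, 12.3 and 10 TPM in pLV-SEMA6A. All its pLV-SEMA6A libraries lay below those of pLV-Control, yet its log2 change of −0.25 ± 0.089 (SE, adjusted p = 0.0594) missed the threshold, and it passed without pLV-SEMA6A replicate 2 (adjusted p = 0.0402, with a range of 0.0402 to 0.266 over all alternatives). Becn1, the Beclin 1 subunit of the lipid kinase that makes PI3P, was at 59.9, 70.6 and 72.8 TPM in pLV-Control against 55.9, 53.6 and 54.5 TPM in pLV-SEMA6A. Its log2 change of −0.30 ± 0.074 (SE, adjusted p = 0.0163) did not pass without pLV-Control replicate 2 (adjusted p = 0.0545) or after median centring (adjusted p = 0.0637, with a range of 0.00134 to 0.0637 over all alternatives). Atg9a, a scramblase on the vesicles that seed the membrane, was at 16.7 ± 0.579 TPM in pLV-Control against 15.7 ± 0.555 TPM in pLV-SEMA6A (mean ± SD, n = 3), and its log2 change of −0.085 (95% interval −0.21 to 0.04, adjusted p = 0.225) turned to 0.0086 after median centring.

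The 5 conjugation enzymes moved in both directions, with 1 higher (20%), 2 lower (40%) and 2 that did not pass. Of all genes tested, 19.5% were higher and 28.2% lower. Atg3, the E2-like enzyme that joins LC3 to lipid, was at 30.4, 34.6 and 32.3 TPM in pLV-Control against 42.3, 44.4 and 44.9 TPM in pLV-SEMA6A. Every pLV-SEMA6A library was higher, a rise of 35.3% with a log2 change of 0.43 ± 0.056 (SE, adjusted p = 0.00124). Atg12, the ubiquitin-like protein that is joined to ATG5, was at 33.6, 36.6 and 36.8 TPM in pLV-Control against 27.7, 27.3 and 28.3 TPM in pLV-SEMA6A, and fell with a log2 change of −0.35 ± 0.048 (SE, adjusted p = 0.00147). Atg16l1, which binds the conjugate of both, was at 20.7, 21.01 and 20.1 TPM in pLV-Control against 19.5, 16.4 and 16.8 TPM in pLV-SEMA6A.

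The log2 change of Atg16l1, −0.22 ± 0.072 (SE, adjusted p = 0.0416), passed in only 1 of 6 fits with a library left out, that without pLV-SEMA6A replicate 1, with an adjusted p of 0.0773 to 0.114 in the other 5 and of 0.184 after median centring. Atg5, the acceptor of ATG12, was at 19.2 ± 1.61 TPM in pLV-Control against 21.2 ± 1.18 TPM in pLV-SEMA6A (mean ± SD, n = 3), with a 95% interval of the log2 change of −0.043 to 0.31 (adjusted p = 0.178). Atg7, the E1-like enzyme of both conjugation reactions, was at 8.74 ± 0.700 TPM in pLV-Control against 9.42 ± 0.490 TPM in pLV-SEMA6A (mean ± SD, n = 3), with an interval of −0.088 to 0.29 (adjusted p = 0.332). After median centring Atg5 passed as higher (0.23, adjusted p = 0.0433, with a range of 0.0433 to 0.429 over all alternatives), and Atg7 did after quantile normalisation (0.25, adjusted p = 0.0355, with a range of 0.0355 to 0.663).

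The genes of the LC3 and GABARAP family, which coat the autophagosome and hold its cargo receptors, diverged. Map1lc3a, which encodes LC3A on chromosome 2 from 155276297 to 155278073, was the only member that was a DEG in the upward direction, and was at 76.9, 71.7 and 79.2 TPM in pLV-Control against 117, 107 and 110.1 TPM in pLV-SEMA6A. It rose by 46.7%, a log2 change of 0.55 ± 0.05 (SE, adjusted p = 0.000258). Map1lc3b, which encodes the LC3B protein used as the usual marker of autophagosomes, was at 88.8, 95 and 93.7 TPM in pLV-Control against 89.6, 91.1 and 102 TPM in pLV-SEMA6A. Its groups overlapped, and the log2 change was 0.025 (95% interval −0.11 to 0.16, adjusted p = 0.738), with a sign that turned to −0.03 after quantile normalisation.

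Gabarapl1 was at 136, 144 and 139 TPM in pLV-Control against 97.8, 101 and 111 TPM in pLV-SEMA6A. All pLV-SEMA6A libraries were lower, with a log2 change of −0.43 ± 0.052 (SE, adjusted p = 0.000844). Gabarap rose slightly, from 195 ± 2.75 to 210.4 ± 4.54 TPM (mean ± SD, n = 3), a log2 change of 0.11 ± 0.026 (SE, adjusted p = 0.0144), which did not pass after quantile normalisation (0.035, adjusted p = 0.333, with a range of 0.00154 to 0.333 over all alternatives). Gabarapl2 was at 53.99 ± 3.21 TPM in pLV-Control against 57.8 ± 3.19 TPM in pLV-SEMA6A (mean ± SD, n = 3) and did not pass (log2 change 0.097, 95% interval −0.047 to 0.24, adjusted p = 0.228), although it did after median centring (0.19, adjusted p = 0.0431, with a range of 0.0431 to 0.526 over all alternatives).

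Of the 3 cargo receptors, which tie ubiquitin-tagged cargo to LC3, Sqstm1 and Nbr1 fell and Optn did not pass. Sqstm1, on chromosome 11 from 50199366 to 50210827, had the highest TPM of the 41 genes in pLV-Control and was at 1610.1, 1633 and 1613 TPM in pLV-Control against 987, 991 and 983 TPM in pLV-SEMA6A. It fell by 39.03% with little spread within either group, a log2 change of −0.71 ± 0.015 (SE, adjusted p = 8.2e-07), the lowest adjusted p of the members. Nbr1, a receptor that works with p62, lies on chromosome 11 from 101552149 to 101581951 and was at 79.3, 77.04 and 82.8 TPM in pLV-Control against 52.4, 51.3 and 51.1 TPM in pLV-SEMA6A. It fell by 35.2%, a log2 change of −0.62 ± 0.037 (SE, adjusted p = 4.9e-05). Optn, a receptor of damaged mitochondria and bacteria, was at 12.8, 13.3 and 14.2 TPM in pLV-Control against 11.6, 12.9 and 14.1 TPM in pLV-SEMA6A, with overlapping groups, a log2 change of −0.058 (95% interval −0.25 to 0.14, adjusted p = 0.59) and a sign that turned to 0.035 after median centring.

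Summed TPM weights each role group by its abundant genes and is given as a description without a test. The 3 cargo receptors summed to 1702 to 1723 TPM in pLV-Control and 1048 to 1055 TPM in pLV-SEMA6A, most of it Sqstm1. The 7 glycosidases and lipid-handling proteins went from 996 to 1012 TPM down to 636 to 643 TPM, and the 8 cathepsins from 2187 to 2313 TPM down to 1755 to 1819 TPM. The membrane proteins were at 1663 to 1723 TPM in pLV-Control and 1851 to 1853 TPM in pLV-SEMA6A, carried by Cd63 and Lamp1, although 2 of the 4 genes fell. The sums of the conjugation enzymes and of the LC3 and GABARAP family overlapped between the groups.

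**Figure D3:**
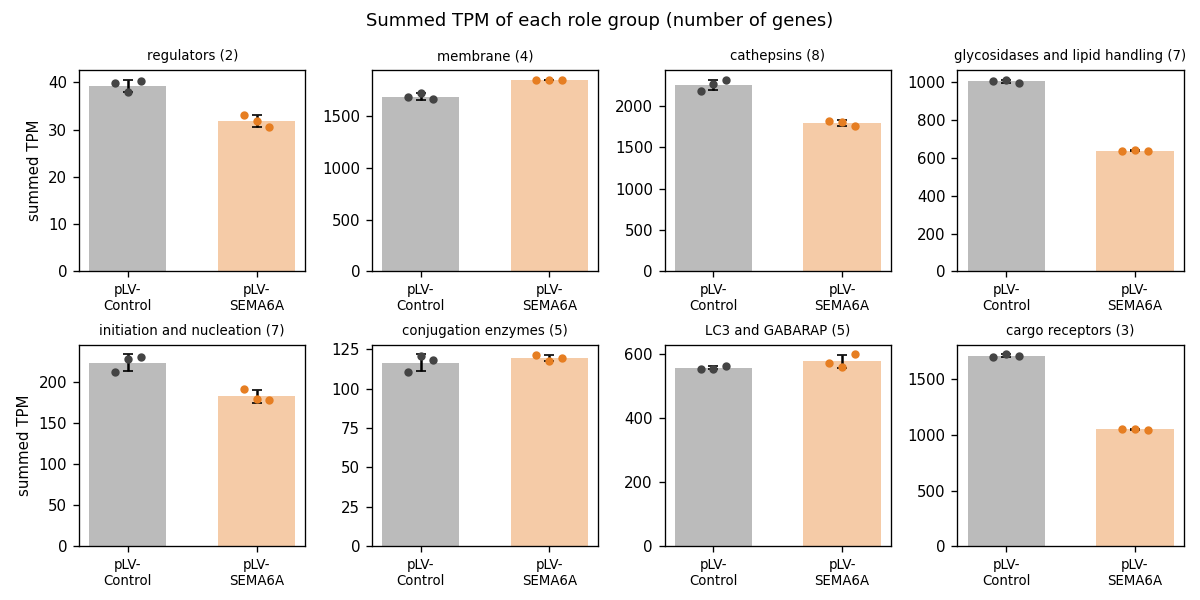
Summed TPM of each role group, with bars at the mean of 3 libraries, error bars of 1 SD and points for single libraries, each panel from 0 on its own scale. The sums are lower in every pLV-SEMA6A library for regulators, cathepsins, glycosidases and lipid handling, initiation and nucleation, and cargo receptors, higher for membrane proteins, and overlapping for the other 2 groups.

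Other genes of the lysosome, of mTORC1 and TFEB control and of autophagy were taken from 6 lists. These hold 153 genes, none of them members, of which 134 were tested. Of these, 64 fell (47.8%), 17 rose (12.7%) and 53 did not pass, with a median log2 change of −0.15, beside −0.064 for all genes tested, of which 28.2% fell and 19.5% rose. After median centring 47 were lower and 30 higher, beside 19.8% and 26.9% of all genes. The named genes are the largest rise and the largest fall past the test in each list, except that no fall is named among the further lysosomal enzymes.

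Beside 28.2% lower and 19.5% higher of all genes, 22 of the 30 tested among 33 further lysosomal enzymes fell (73.3%) and 1 rose (3.33%). Their median was −0.33. The only rise was that of Ids, the iduronate 2-sulfatase, from 9.61 ± 0.616 to 12.4 ± 0.530 TPM (mean ± SD, n = 3), a log2 change of 0.33 ± 0.068 (SE, adjusted p = 0.00735). Among 23 genes of the lysosomal membrane and of sorting to it, 18 were tested. Of these 12 fell (66.7%) and 1 rose (5.56%), with a median of −0.33. Scarb2, the receptor LIMP-2 that carries glucocerebrosidase to lysosomes, fell from 41.7 ± 0.933 to 23.3 ± 1.53 TPM (mean ± SD, n = 3), a log2 change of −0.81 ± 0.056 (SE, adjusted p = 7.9e-05). Gnptg, a subunit of the enzyme that adds the mannose 6-phosphate tag, rose from 12.7 ± 0.199 to 15.8 ± 0.407 TPM (mean ± SD, n = 3), a log2 change of 0.30 ± 0.048 (SE, adjusted p = 0.00299).

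Of the 25 V-ATPase subunits 17 were tested, with 6 higher (35.3%) and 3 lower (17.6%) and a median of 0.076. The shares over all genes tested were 19.5% and 28.2%, and no test of a difference between lists was made. Atp6v1h, a subunit of the part that splits ATP, rose from 58.3 ± 1.70 to 71.4 ± 2.75 TPM (mean ± SD, n = 3), a log2 change of 0.29 ± 0.041 (SE, adjusted p = 0.00174). Tcirg1, the a3 subunit of the membrane part, fell from 101 ± 10.3 to 62.5 ± 8.84 TPM (mean ± SD, n = 3), a log2 change of −0.69 ± 0.11 (SE, adjusted p = 0.00333). After median centring 10 subunits were higher and 2 lower, beside 26.9% and 19.8% of all genes tested.

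Among 25 genes of mTORC1 and TFEB control, 22 were tested, 4 rose (18.2%) and 7 fell (31.8%), close to the 19.5% and 28.2% of all genes, with a median of −0.031 that became 0.062 after median centring. Lamtor1, which anchors the Ragulator complex and with it mTORC1 to the lysosome, rose from 41.6 ± 0.849 to 74.3 ± 6.30 TPM (mean ± SD, n = 3), a log2 change of 0.82 ± 0.064 (SE, adjusted p = 0.000137) and the largest rise in all 6 lists. Fnip2, a partner of folliculin in the control of TFE3, fell from 19.2 ± 0.900 to 11.5 ± 0.656 TPM (mean ± SD, n = 3), a log2 change of −0.70 ± 0.063 (SE, adjusted p = 0.000246).

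All 28 other core autophagy genes were tested, of which 14 fell (50%) and 1 rose (3.57%), with a median of −0.16. Of all genes tested, 28.2% fell and 19.5% rose. After median centring 9 of the 28 were lower and 3 higher, with a median of −0.066, beside 19.8% and 26.9% of all genes tested. Atg16l2, a relative of Atg16l1, fell from 24.2 ± 4.91 to 12.8 ± 2.45 TPM (mean ± SD, n = 3), a log2 change of −0.87 ± 0.18 (SE, adjusted p = 0.00793). Tmem41b, a lipid scramblase of the endoplasmic reticulum needed for autophagosomes, rose from 42.9 ± 3.70 to 55.5 ± 2.06 TPM (mean ± SD, n = 3), a log2 change of 0.37 ± 0.066 (SE, adjusted p = 0.0044). Of 19 other genes of selective autophagy, all tested, 6 fell (31.6%) and 4 rose (21.1%), also close to the shares of all genes, with a median of −0.03 that became 0.063 after median centring. Calcoco1, a receptor for the turnover of endoplasmic reticulum and Golgi, fell from 60.7 ± 1.20 to 42.2 ± 1.57 TPM (mean ± SD, n = 3), a log2 change of −0.51 ± 0.04 (SE, adjusted p = 0.000128). Phb2, a mitochondrial prohibitin that also acts in mitophagy, rose from 187 ± 6.15 to 271 ± 2.28 TPM (mean ± SD, n = 3), a log2 change of 0.53 ± 0.03 (SE, adjusted p = 3.8e-05).

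**Figure D4:**
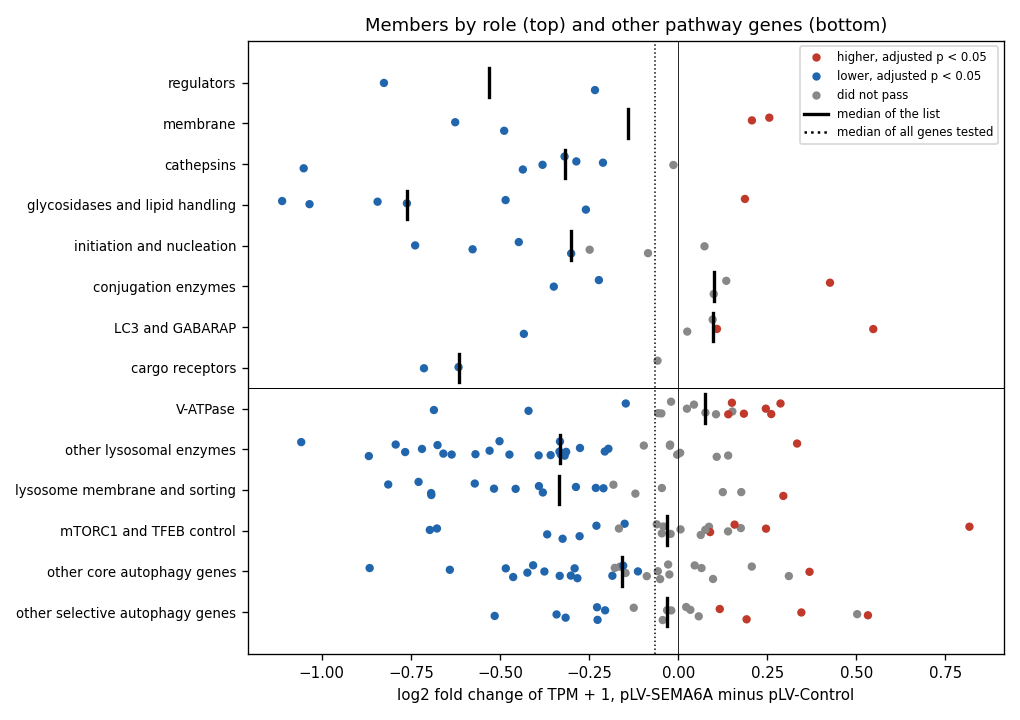
Log2 change of each tested gene (points) in the 8 role groups of members and the 6 lists of other pathway genes, with the median of each list as a black bar and that of all genes tested as a dotted line; points are spread vertically at random for legibility. The medians lie at −0.76 for glycosidases and lipid handling and −0.62 for cargo receptors, and at 0.076 for the V-ATPase.

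Several members share sequence with other genes, and the counting is not stated to use strand. In 11 of the 41 genes, over 10% of the 31-base stretches of their GENCODE M21 transcripts occur in transcripts of other genes, so their values are less certain. The share was 40.04% for Becn1, mostly with the overlapping Cntd1 on the opposite strand, and 33.2% for Ctsd, 32.4% for Atg9a, 28.2% for Ctsl and 25.2% for Gabarapl1. Cntd1 was at 0.06 to 0.42 TPM over the 6 libraries. The gene sharing most was at 0.72 to 3.57 TPM for Ctsd and at 0.83 to 1.54 TPM for Atg9a. It was at 0 for Ctsl and at 0.16 to 0.59 TPM for Gabarapl1. These levels rest on the same shared stretches. It was 16.4% for Sqstm1, mostly with Mrnip on the opposite strand, and 11.4% for Hexa, mostly with Tmem202. Mrnip was at 4.30 to 7.41 TPM and Tmem202 at 0.24 to 1.16 TPM over the 6 libraries. Ctsb shared 13.0% mostly with Fdft1, which averaged 26.2 TPM without and 36.2 TPM with SEMA6A overexpression. Ctsa shared 14.6% mostly with Pltp, which averaged 19.96 TPM without and 14.8 TPM with it. The other members with over 10% were Cd63 and Gabarapl2, and the share was 0.161% for Neu1, 1.92% for Npc2 and 0 for Psap and Map1lc3a.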

How the data were processed

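The authors deposited TPM for each of 6 libraries, with 2 decimals, and the mean TPM of each group, which was not used. The unit was read from the values, which sum to between 977400 and 986444 per library. Per the labels, the submitters' processing notes name Bowtie2, HISAT, RSEM and the build mm39, without roles, and the methods name DESeq2 for the comparison. TPM is not a count and keeps no depth, so neither DESeq2 nor detection limits were used here. The annotation is not given in the sources used here, and genes were placed on GRCm38 by matching identifiers to GENCODE M21.

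limma 3.58.1 (R 4.3.3, with trend) compared the groups on log2(TPM + 1), without other terms, in 12510 genes averaging 1 TPM or more, with Benjamini-Hochberg adjustment over all of them at 0.05. DEGs also had an absolute log2 fold change over 0.5, a minimum that the supplement gives for limma comparisons of groups without naming these libraries. With 3 libraries a group, the lowest p of an exact permutation test is 0.1. Smaller values rest on the distribution that limma assumes, with spread pooled over genes. The fit was tested on simulated data.

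The members and gene lists were chosen with earlier results of these data known. Per-library values are given for members that were DEGs or among the 12 largest changes at a mean of at least 10 TPM, for Tfeb and Tfe3, and, beyond that rule, for further members. Marker genes, Mitf and Tfec were also named outside the rule, and 1 gene that the rule names is not reported here. Alternatives were another pseudocount, no filter, 2 scalings, no trend, the replicate block, another minimum fold change and leaving out each library.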

Additional observations from a re-analysis of the deposited data

How the results depend on the processing

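No member that passed the test changed direction under any alternative tried. Over the alternatives, 21 to 25 members were lower and 5 to 8 higher at an adjusted p under 0.05. The shares of all genes moved too, from 13% without the filter to 28.4% with the other pseudocount for lower. For higher they went from 8.78% without the filter to 26.9% with median centring. In the lower direction 10 to 12 members were DEGs under the minimum of 0.5. The shares of DEGs over all genes were taken in the main fit only, at 10.8% lower and 5.12% higher. The counts of DEGs under the alternatives, here and below, therefore have no such share beside them and are given as a description. When each library was left out in turn, 21 to 25 members were lower, 5 to 6 higher and 10 to 11 were lower DEGs. Of the other pathway genes 13 to 16 were higher and 51 to 58 lower in these fits. Of all genes, 23.4% to 25.1% were lower and 16.7% to 17.2% higher in them. With a minimum log2 fold change of 1 in place of 0.5, 3 members were lower and 0 higher DEGs by limma, where fewer genes can pass by construction. With median centring, 2 members were higher DEGs, the second being Atg3 (0.52). With it 30 of the other pathway genes were higher, beside 26.9% of all genes. Among members that did not pass, the sign turned with median centring for Ctsc (0.080), Atg9a (0.0086) and Optn (0.035), and with quantile normalisation for Ctsc (0.10), Atg9a (0.014), Optn (0.064) and Map1lc3b (−0.030). Over the fits with a library left out it also turned for Ctsc (−0.071 to 0.045), Map1lc3b (−0.033 to 0.061), Optn (−0.12 to 0.0095) and Wipi2 (−0.0068 to 0.12). The cause was not tested.

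Deviations of libraries that share a number correlated at −0.059 on average (3 pairs), those of other libraries at 0.029 (6 pairs), and no library correlated best with its own number. Deviations were taken from the group means, which ties these averages to each other, so the second is not a separate comparison. With the replicate block, 23 members were lower and 5 higher, beside 24.5% and 17.3% of all genes, and 11 and 1 were DEGs. Gla (adjusted p = 0.0878), Gusb (0.0582) and Atg16l1 (0.0626), from limma, did not pass with it.

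Without depth, the precision of low genes such as Tfeb and Ctsk rests on 3 libraries a group.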
